A study of Mus musculus with 6 samples.

Results

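Genes of the unfolded protein response and the integrated stress response, namely Atf4, Ddit3, Trib3, Asns, Chac1, Hspa5, Xbp1, Herpud1, Sdf2l1 and Atf5, were read in bulk RNA-seq of the mouse dorsal hippocampus. They were taken by name and are 10 of the 55401 genes counted, and all 10 passed the filter on low counts, which left 19969 genes for testing. The 6 libraries came from WT mice aged 4 months, littermates of the Ts65Dn Down syndrome line on its mixed C57/6Ei and C3H/HeSnJ background. Each mouse received 50 μg of an antisense oligonucleotide (ASO) per hemisphere in the dorsal dentate gyrus, and the tissue was collected 3 days later. Control-ASO, a scrambled order of the same nucleotides, was given to 3 mice, and Snhg11-ASO, aimed at exon 5 of the lncRNA Snhg11 for degradation by RNase H, to the other 3. Both had a phosphorothioate backbone, and the study's methods call them uniformly 2′MOE-modified. Its results call the control a gapmer and name RNase H, and these descriptions were not reconciled here. Labels give the treated genotype as Snhg11 KD, although the reduction is made by the ASO and not by an allele. Every group therefore carries an injected ASO, and no uninjected mouse was compared. The knockdown was made with 1 ASO in these mice, so an effect of its target and an effect of that particular molecule cannot be told apart.

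The unfolded protein response starts when misfolded proteins gather in the endoplasmic reticulum (ER) and draw the chaperone BiP, the product of Hspa5, away from the sensors IRE1, PERK and ATF6. IRE1 splices the Xbp1 mRNA, ATF6 is cleaved into a transcription factor, and PERK phosphorylates the translation factor eIF2α. PERK shares that substrate with GCN2, PKR and HRI, which sense uncharged tRNA, double-stranded RNA and haem or mitochondrial stress, and the common branch is called the integrated stress response. It lowers general translation while ATF4 is translated more, and ATF4 with CHOP, the product of Ddit3, drives genes of amino acid supply and of stress-induced cell death. In hippocampus this branch is known for its bearing on synaptic plasticity and memory. Gene counts read neither the translation of Atf4 and Atf5 nor the splicing of Xbp1, so only the amounts of these mRNAs are given here.

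None of the 10 genes passed the adjusted threshold between Snhg11-ASO and Control-ASO, where 0 of all 19969 genes tested did. A higher fitted level in Snhg11-ASO was found for 9 of the 10, and for 51.7% of all genes tested. Among the 10, the largest log2 differences were those of Trib3 (1.41), Atf4 (0.54) and Atf5 (0.51), while Asns, Chac1, Xbp1 and Herpud1 lay between -0.02 and 0.08. Snhg11-ASO replicate 1 held the highest value of 6 of the 10, and of 33.3% of all genes tested. Among the 6 was Atf4, at 118.7 CPM in that replicate against 56.4 and 69.6 CPM in the other Snhg11-ASO samples. Without Snhg11-ASO replicate 1 the difference of Atf4 was 0.16 and that of Trib3 0.85. CPM are read-pair counts as a share of each library's TMM-scaled total, and log2 differences are edgeR fits of Snhg11-ASO over Control-ASO.

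Depth, target and tissue bear on every value that follows. Libraries held 28951250 to 43997537 read pairs in genes. The knocked-down Snhg11 itself measured 551, 436 and 209 CPM under Control-ASO (replicates 1 to 3) and 139, 65.4 and 69.4 CPM under Snhg11-ASO, with no overlap. Its log2 difference of -2.13 (SE 0.43) missed the threshold in edgeR (Benjamini-Hochberg adjusted p = 0.395) and passed it in DESeq2 (adjusted p = 6.25e-05), and was -2.56 in edgeR without Snhg11-ASO replicate 1. Markers of hippocampal neurons, with Camk2a the most abundant, summed to 3132 to 3749 CPM in Control-ASO and to 3182 to 3606 CPM in Snhg11-ASO. Each of these markers had counts in every library. Choroid plexus markers summed to 43.0 to 1990 CPM within Control-ASO and to 77.1 to 1348 CPM within Snhg11-ASO, a wide spread in both groups, and their part in the values below was not tested. In bulk tissue, fewer cells of a type and less RNA per cell cannot be told apart. Snhg11-ASO replicate 1 stood apart from the other libraries: its Spearman correlations across genes with the other 5 samples were 0.955 to 0.959, against 0.979 to 0.991 for the remaining 10 pairs. The study's methods state that 1 Snhg11-ASO sample was removed as an outlier without naming it, so all 3 were kept here, and values without replicate 1 are given beside those it moves most.

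Promoters were read in RefSeq windows from 250 bases before to 50 after each start (GRCm38.p6), and all 10 genes had one. Trib3, Asns, Chac1 and Herpud1 held the composite site of ATF4 and CEBP proteins, searched as TGATGNAA on both strands and present in 3.97% of the 32851 mouse windows. The stretches are shown because ATF4 is known to act through this element, and capitals mark the match, which in Trib3, Chac1 and Herpud1 is read on the opposite strand of the gene. Each stretch is printed 5′ to 3′ on the strand of its gene. The Trib3 stretch lies at chr2:152344028-152344057 on the minus strand, with its match beginning at base 15 after the start. The Asns stretch is chr6:7693214-7693243 on the minus strand, 23 bases before the start. Starts here are those of RefSeq and can differ from the GENCODE gene limits given below, inside which the Asns stretch lies. The Chac1 stretch is chr2:119351009-119351096 on the plus strand, 193 bases before the start. The Herpud1 stretch is chr8:94386277-94386364 on the plus strand, 112 bases before the start.
Trib3: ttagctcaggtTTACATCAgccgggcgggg
Asns: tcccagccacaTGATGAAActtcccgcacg
Chac1: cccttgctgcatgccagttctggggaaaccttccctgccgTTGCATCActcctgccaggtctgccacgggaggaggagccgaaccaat
Herpud1: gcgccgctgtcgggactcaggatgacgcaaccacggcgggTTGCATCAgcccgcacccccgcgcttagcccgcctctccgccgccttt

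The ER stress elements read by ATF6 and XBP1 were found in the promoters of Hspa5 and Herpud1. The ER stress response element (ERSE), searched as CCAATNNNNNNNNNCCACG, occurs in 0.119% of all windows and lay 65 bases before the start of Hspa5, in chr2:34772020-34772049 on the plus strand. Its relative ERSE-II, searched as ATTGGNCCACG and held by 0.0365% of windows, lay 52 bases before the start of Herpud1, in chr8:94386337-94386427 on the plus strand. The core TGACGTG of the unfolded protein response element (UPRE), held by 2.01% of windows, lay 157 bases before the start of Hspa5, in chr2:34771922-34771951. Each pattern was searched on both strands. The ERSE stretch lies before the RefSeq start of Hspa5 but inside the GENCODE limits of the gene given below.
Hspa5, ERSE: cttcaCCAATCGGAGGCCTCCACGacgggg
Hspa5, UPRE core: gggcgtagcaaTGACGTGagttgcggagga
Herpud1, ERSE-II: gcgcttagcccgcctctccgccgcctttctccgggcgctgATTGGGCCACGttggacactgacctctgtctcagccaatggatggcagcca
The windows of Atf4, Ddit3, Xbp1, Sdf2l1 and Atf5 held none of these patterns, which says only that these letters are not in those stretches. A match is a description of the sequence and not a measured binding site.

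The transcription factors were described first. Atf4 (ENSMUSG00000042406, chromosome 15, 80255184 to 80257541, plus strand, GRCm38) encodes the factor at the centre of the integrated stress response. Its Control-ASO samples measured 54.3, 54.9 and 59.6 CPM (replicates 1 to 3, the order used throughout). Its Snhg11-ASO samples measured 118.7, 56.4 and 69.6 CPM. Replicate 1 was far above the rest, replicate 2 lay inside the Control-ASO range and replicate 3 lay above it, so the groups overlapped. The means were 56.2 ± 2.91 and 81.6 ± 32.8 CPM (SD, n = 3 each). The log2 difference was 0.54 (SE 0.26, edgeR quasi-likelihood test, Benjamini-Hochberg adjusted p = 0.656), and the two-sided exact permutation p was 0.2, where 3 samples against 3 cannot give less than 0.1. The spread of the Snhg11-ASO samples was wider than the difference itself. Without Snhg11-ASO replicate 1 the log2 difference was 0.16 (SE 0.11, edgeR adjusted p = 0.654).

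Ddit3 encodes CHOP, the factor that ATF4 induces and that links prolonged stress to cell death (ENSMUSG00000025408, chromosome 10, 127290774 to 127296288, plus strand). Control-ASO samples measured 6.90, 7.49 and 8.52 CPM, and Snhg11-ASO samples 10.4, 9.21 and 9.12 CPM. All Snhg11-ASO samples lay above all Control-ASO samples, and here the separation did not rest on replicate 1 alone. The means were 7.64 ± 0.819 and 9.56 ± 0.692 CPM (SD, n = 3 each). The log2 difference was 0.32 (SE 0.15, edgeR adjusted p = 0.644), which did not pass the threshold, and the exact permutation p of 0.1 is the smallest this design allows. It was 0.26 (SE 0.13) without Snhg11-ASO replicate 1 and 0.22 when both strands were counted together. Ddit3 shares 68 exonic bases with Mars on the opposite strand, and 1.11% of its 50-base words occur in Mars transcripts. A second annotation entry with the symbol Ddit3, of 105 bases inside this gene, had 0 counts in every library.

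Atf5 encodes a relative of ATF4 whose mRNA is likewise translated more when eIF2α is phosphorylated, and which is known in the mitochondrial branch of the response (ENSMUSG00000038539, chromosome 7, 44812256 to 44816658, minus strand). Control-ASO samples measured 4.997, 9.21 and 10.4 CPM, whereas Snhg11-ASO samples measured 11.5, 12.3 and 11.2 CPM. The groups did not overlap, and Control-ASO replicate 1 lay far below the other 5 samples. The means were 8.19 ± 2.82 and 11.7 ± 0.576 CPM (SD, n = 3 each). The log2 difference was 0.51 (SE 0.27, edgeR adjusted p = 0.675, exact permutation p = 0.1). It was 0.24 without Control-ASO replicate 1 and 0.52 without Snhg11-ASO replicate 1, so the size of this difference followed a control library. Atf5 shares 82 exonic bases with Nup62 and Il4i1 on the opposite strand.

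Xbp1, the factor made active by IRE1 splicing, lies on chromosome 11 (5520659 to 5525893, plus strand). Its Control-ASO samples stood at 50.5, 43.6 and 50.9 CPM and its Snhg11-ASO samples at 49.0, 50.6 and 53.3 CPM. The 2 ranges overlapped. The log2 difference of 0.08 (SE 0.10, edgeR adjusted p = 0.859) was smaller than its error, and it was 0.01 without Control-ASO replicate 2. Spliced and unspliced Xbp1 were counted together.

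Trib3 encodes a pseudokinase that ATF4 and CHOP induce and that restrains AKT and ATF4 itself (chromosome 2, 152337422 to 152344032, minus strand). It was the rarest of the 10 genes, with 9, 7 and 9 read pairs in the Control-ASO libraries and 44, 28 and 12 in the Snhg11-ASO libraries. In CPM these were 0.306, 0.208 and 0.267 against 1.15, 0.670 and 0.275. Replicates 1 and 2 of Snhg11-ASO stood above every Control-ASO sample, while replicate 3 lay within the Control-ASO range. The log2 difference was 1.41 (SE 0.56, edgeR unadjusted p = 0.0393, adjusted p = 0.591, exact permutation p = 0.2). It was the only one of the 10 genes at an unadjusted p under 0.05, where 8.11% of all genes tested lay there and 3.68% lay there with a higher level in Snhg11-ASO. Without Snhg11-ASO replicate 1 the log2 difference was 0.85 (SE 0.49) and none of the 10 genes reached an unadjusted p under 0.05, against 9.94% of all genes in that fit.

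Asns, asparagine synthetase, makes asparagine from aspartate and glutamine and is a classical ATF4 target (chromosome 6, 7675169 to 7693254, minus strand). It stood at 53.6, 58.3 and 61.8 CPM in Control-ASO and at 64.6, 56.9 and 58.5 CPM in Snhg11-ASO. Apart from replicate 1, the Snhg11-ASO samples lay inside the Control-ASO range. The log2 difference was 0.05 (SE 0.10, edgeR adjusted p = 0.908), and it was -0.01 without Snhg11-ASO replicate 1. Chac1, which degrades glutathione (chromosome 2, 119351229 to 119354381, plus strand), stood at 2.52, 1.87 and 2.67 CPM against 3.51, 1.84 and 2.11 CPM. Replicate 1 of Snhg11-ASO was again the highest and replicate 2 the lowest of all 6 samples. The log2 difference was 0.08 (SE 0.31, edgeR adjusted p = 0.961) and turned to -0.25 (SE 0.23) without replicate 1. Of these 3 ATF4 targets, Trib3 alone kept a higher fitted level in Snhg11-ASO without that sample.

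Hspa5 encodes BiP, the main HSP70 chaperone of the ER, and was the most abundant of the 10 genes (chromosome 2, 34771970 to 34777547, plus strand). Its levels were 185, 156 and 186 CPM in Control-ASO and 190.0, 199.6 and 182 CPM in Snhg11-ASO. Unlike Atf4, Hspa5 was not highest in Snhg11-ASO replicate 1. The means were 176 ± 17.1 and 190.5 ± 8.88 CPM (SD, n = 3 each). The log2 difference of 0.12 (SE 0.10, edgeR adjusted p = 0.785, exact permutation p = 0.3) was 0.12 without that replicate too, and 0.04 without Control-ASO replicate 2, the lowest sample.

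Herpud1 encodes an ER membrane protein that assembles the degradation complex for misfolded proteins (chromosome 8, 94386438 to 94395377, plus strand). Its levels were 31.2, 27.3 and 30.2 CPM in Control-ASO and 36.2, 23.3 and 27.8 CPM in Snhg11-ASO. The Snhg11-ASO samples lay on both sides of the Control-ASO range, and the log2 difference was -0.02 (SE 0.17, edgeR adjusted p = 0.979). Without Snhg11-ASO replicate 1 it was -0.21 (SE 0.11). Sdf2l1, a cofactor of BiP in the ER lumen (chromosome 16, 17130138 to 17132383, minus strand), stood at 5.40, 6.66 and 5.67 CPM against 5.38, 7.90 and 6.89 CPM. Here replicate 1 of Snhg11-ASO was the lowest of the 6 samples, and the log2 difference was 0.19 (SE 0.20, edgeR adjusted p = 0.833) with it and 0.32 (SE 0.15) without it. Without Snhg11-ASO replicate 2, the highest sample, it was 0.05.

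**Figure D1:**
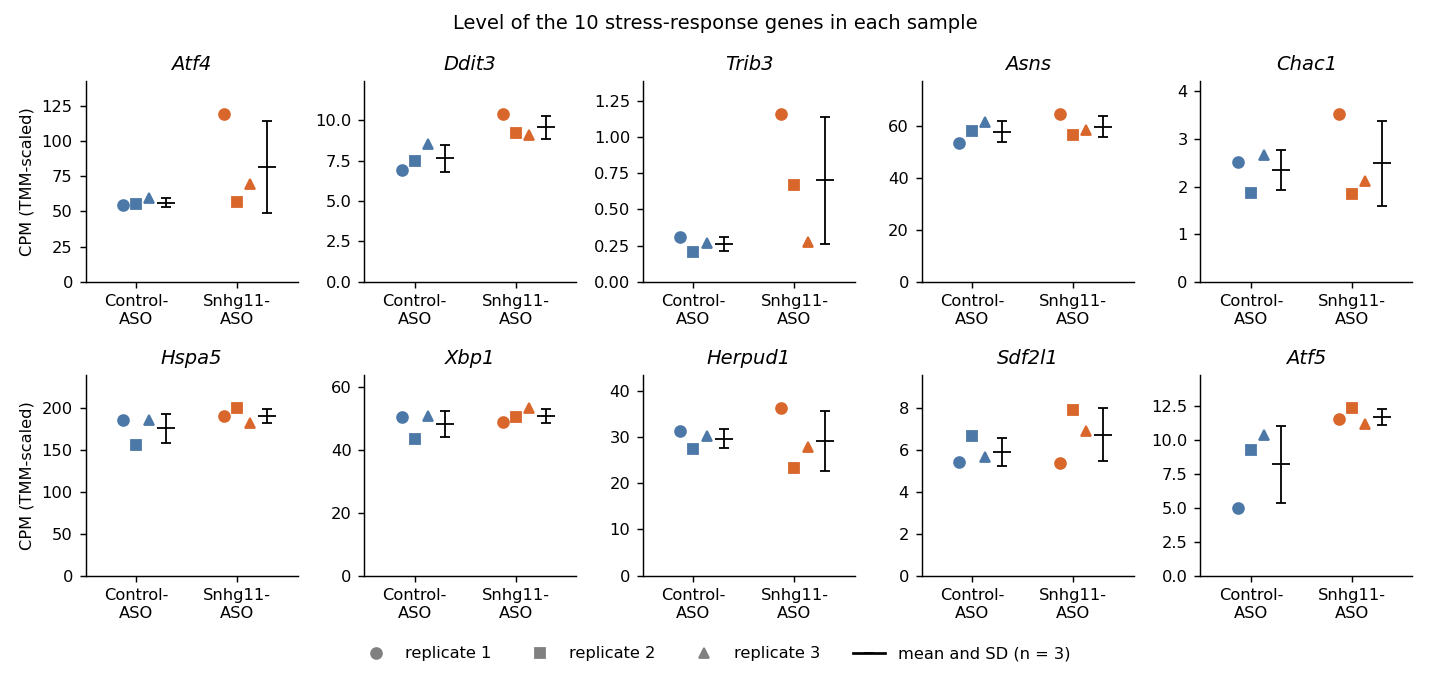
Level of each of the 10 genes in CPM (TMM-scaled, axes from 0) in the 3 Control-ASO (blue) and 3 Snhg11-ASO (orange) samples, with marker shape for the replicate number and a bar for mean ± SD. Atf4 and Trib3 are highest in Snhg11-ASO replicate 1, at 118.7 and 1.15 CPM, whereas the samples of Ddit3 and Atf5 do not overlap between groups and those of Xbp1 do.

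Set against the whole table, the 10 genes had a median log2 difference of 0.15, where all genes tested had 0.01, and 51.7% of all genes were higher in Snhg11-ASO. Adjusted calls in edgeR numbered 0 of the 10 genes and 0% of all genes tested, with 1 of the 10 genes and 1619 of all genes at an unadjusted p under 0.05. DESeq2 called 258 genes, 1.44% of those with an adjusted p, and again 0 of the 10. Groups of Ddit3 and Atf5, 2 of the 10 genes, did not overlap, with Snhg11-ASO higher, against 7.73% of all genes, and 0 had Snhg11-ASO lower, against 7.7%. In all 10 the highest of the 6 samples was a Snhg11-ASO sample, which held for 57.8% of all genes. That sample was replicate 1 for 6 of the 10 (Atf4, Ddit3, Trib3, Asns, Chac1 and Herpud1), against 33.3% of all genes. Without it, 7 of the 10 were higher and 3 were lower, with a median of 0.14. The genes share their samples, are not replicates of one another and were chosen with earlier results of these data known, so these counts carry no test.

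**Figure D2:**
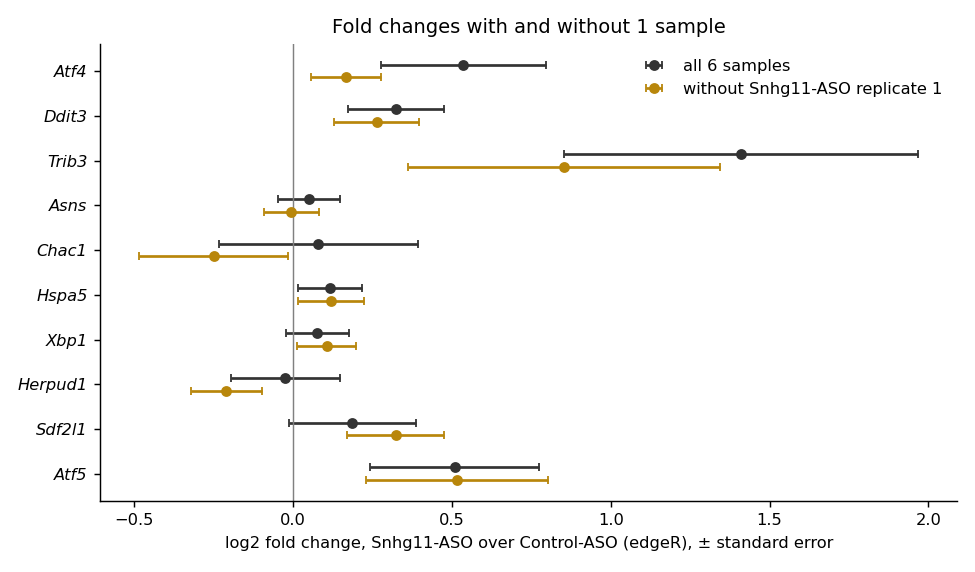
Log2 fold change of each of the 10 genes, Snhg11-ASO over Control-ASO, from edgeR with its standard error, with all 6 samples (black) and without Snhg11-ASO replicate 1 (gold). Trib3 goes from 1.41 to 0.85 and Atf4 from 0.54 to 0.16, Chac1 turns from 0.08 to -0.25, and Ddit3, Hspa5 and Atf5 stay close to their values.

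Per kilobase of exon, the levels of the 10 mRNAs in the Control-ASO samples spanned a wide range. Hspa5 led with 41.6 ± 4.05 CPM per kb (SD, n = 3), followed by Atf4 with 23.8 ± 1.24 and Asns with 21.2 ± 1.49. Xbp1 stood at 14.9 ± 1.26 and Herpud1 at 12.7 ± 0.877 CPM per kb. None of these neighbours overlapped in their ranges. Sdf2l1 (5.33 ± 0.596), Ddit3 (4.46 ± 0.478) and Atf5 (4.11 ± 1.42 CPM per kb) overlapped each with the next, so their order is not settled by 3 samples. Chac1 at 1.44 ± 0.259 and Trib3 at 0.123 ± 0.0232 CPM per kb were the least abundant.

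The rest of the pathway was read from 7 lists of other genes. In edgeR 0 genes of any list passed the adjusted threshold, so each is described by its counts and its median. The stress effectors, a mixed list of transcription factors, secreted signals, cell death genes and other stress-related genes, differed most by their median. Of them 19 of 20 tested were higher in Snhg11-ASO and 1 lower (Fgf21 did not pass the filter), with a median log2 difference of 0.76. At an unadjusted p under 0.05 lay 6 of the 20, all higher, and in 8 the groups did not overlap, all higher, where 3.68% and 7.73% of all genes tested did so. The list was chosen with earlier results of these data known, so these counts describe it and carry no test. Without Snhg11-ASO replicate 1, 17 were higher and 3 lower, with 4 higher and 1 lower at an unadjusted p under 0.05. Their median departure from the Control-ASO mean was 1.42 in Snhg11-ASO replicate 1, 0.20 in replicate 2 and 0.33 in replicate 3, against -0.02 to 0.02 in the Control-ASO samples. All Snhg11-ASO samples were thus above, with replicate 1 far above, and the median difference was 0.31 without it. Infiltrating leukocyte markers were also highest in replicate 1, while in replicate 3 they lay within the Control-ASO range.

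Within that list Tnfrsf10b, the death receptor that CHOP induces, stood at 0.476, 0.476 and 0.505 CPM in Control-ASO and at 2.33, 1.34 and 1.03 CPM in Snhg11-ASO. Every Snhg11-ASO sample was well above any Control-ASO sample, with a log2 difference of 1.68 (SE 0.37, edgeR unadjusted p = 0.00286, adjusted p = 0.435). Nupr1, a stress-induced chromatin protein, stood at 2.89, 3.75 and 5.34 CPM against 25.3, 6.20 and 9.80 CPM, a log2 difference of 1.78 (SE 0.53, edgeR adjusted p = 0.527). Without Snhg11-ASO replicate 1 the differences were 1.28 for Tnfrsf10b and 1.001 for Nupr1. Of all genes of the 7 lists, DESeq2 called these 2. Nfe2l1, the most abundant of the list, which governs proteasome genes, differed by 0.04, and by -0.01 without that replicate. Atf3, an early response factor downstream of ATF4 that was chosen after its values were seen, stood at 1.73, 1.58 and 1.16 CPM against 18.3, 2.58 and 2.61 CPM. Its Snhg11-ASO samples all lay above Control-ASO, and the log2 difference of 2.39 (SE 0.82) was 0.81 without replicate 1.

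Among 25 sensors and translation control genes, 20 were higher and 5 lower, with a median of 0.15. In 8 the groups did not overlap with Snhg11-ASO higher and in 1 with it lower, against 7.73% and 7.7% of all genes tested. Once Snhg11-ASO replicate 1 was left out, 14 were higher and 11 lower, with a median of 0.02. Atf6, the ER sensor that is itself a transcription factor, stood at 99.0, 116 and 105 CPM in Control-ASO and at 156, 145 and 117 CPM in Snhg11-ASO. The groups did not overlap, by a small margin, and the log2 difference was 0.39 (SE 0.13, edgeR adjusted p = 0.550). It was 0.30 (SE 0.12) without Snhg11-ASO replicate 1. Mbtps2, the protease that finishes ATF6 cleavage, was lower in every Snhg11-ASO sample, with 23.9, 24.5 and 22.6 CPM against 28.0, 25.7 and 30.8 CPM and a log2 difference of -0.25 (SE 0.11). Ppp1r15a, the phosphatase subunit GADD34 that reverses eIF2α phosphorylation, was chosen after its values were seen and stood at 33.9, 7.56 and 8.36 CPM against 7.38, 6.75 and 7.42 CPM. Its log2 difference of 1.21 was 0.15 without replicate 1. Eif2ak2, the gene of PKR, was likewise named after its values were seen and stood at 37.1, 62.6 and 48.0 CPM against 12.3, 33.9 and 35.0 CPM. Its groups did not overlap, by a small margin, and Control-ASO replicate 1 lay far below all other samples. The log2 difference of Eif2ak2 was 0.86 (SE 0.40), and 1.03 (SE 0.41) without Snhg11-ASO replicate 1. Its size without the low Control-ASO library is not given here.

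Lists of ER function came next. Of 27 ER chaperones and folding enzymes, 12 were higher and 15 lower, with a median of -0.01. In 1 the groups did not overlap with Snhg11-ASO higher and in 2 with it lower, against 7.73% and 7.7% of all genes. Without Snhg11-ASO replicate 1, 18 were higher and 9 lower, with a median of 0.02. P4hb, a protein disulfide isomerase, was at 145, 97.1 and 107 CPM in Snhg11-ASO against 82.9, 90.7 and 85.4 CPM in Control-ASO. Its log2 difference was 0.43, and 0.24 without that replicate. Uggt1, the glucosyltransferase that checks glycoprotein folding, differed by -0.25, with every Snhg11-ASO sample below Control-ASO. The abundant lectin chaperone Canx differed by -0.07, and by 0.08 without that replicate. Of 26 genes of ER-associated degradation, 19 were higher and 7 lower, with a median of 0.11 (0.05 without Snhg11-ASO replicate 1). Their highest value was in that replicate for 19. In 8 the groups did not overlap with Snhg11-ASO higher and in 2 with it lower. Derl3, a retrotranslocation channel protein, differed by -0.90 (SE 0.37) on only 11 to 36 read pairs a library, with every Snhg11-ASO sample below Control-ASO. Derl1 differed by 0.20, with every Snhg11-ASO sample above, and the adaptor Sel1l by -0.01.

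For 22 ATF4 targets of amino acid and one-carbon metabolism, 14 were higher and 8 lower, with a median of 0.14 that turned to -0.07 without Snhg11-ASO replicate 1. Slc3a2, the heavy chain of amino acid exchangers, stood at 102, 63.3 and 69.1 CPM in Snhg11-ASO and at 59.6, 55.8 and 55.2 CPM in Control-ASO. All Snhg11-ASO samples lay above, with a log2 difference of 0.46 (SE 0.18, edgeR adjusted p = 0.591) that was 0.22 without replicate 1. The glutamine transporter Slc1a5 differed by 0.92 (SE 0.33) with overlapping groups, and the transaminase Got1 by -0.07. Among 12 tRNA synthetases, 10 were higher and 2 lower, with a median of 0.08 (6 higher, 6 lower and 0.00 without that replicate), Eprs differing by 0.19 and Lars by 0.14. Among 12 genes of the mitochondrial unfolded protein response, 5 were higher and 7 lower, with a median of -0.04 (10 higher, 2 lower and 0.02 without that replicate). The protease genes Clpx and Lonp1 differed by 0.20 and 0.16 and the chaperone gene Hspa9 by 0.13, and without that replicate by 0.03, 0.02 and 0.02. Groups did not overlap, all with Snhg11-ASO higher, in 3 of the 22 ATF4 targets and 2 of the 12 tRNA synthetases. In the mitochondrial list 0 genes did so, where 7.73% of all genes tested did.

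**Figure D3:**
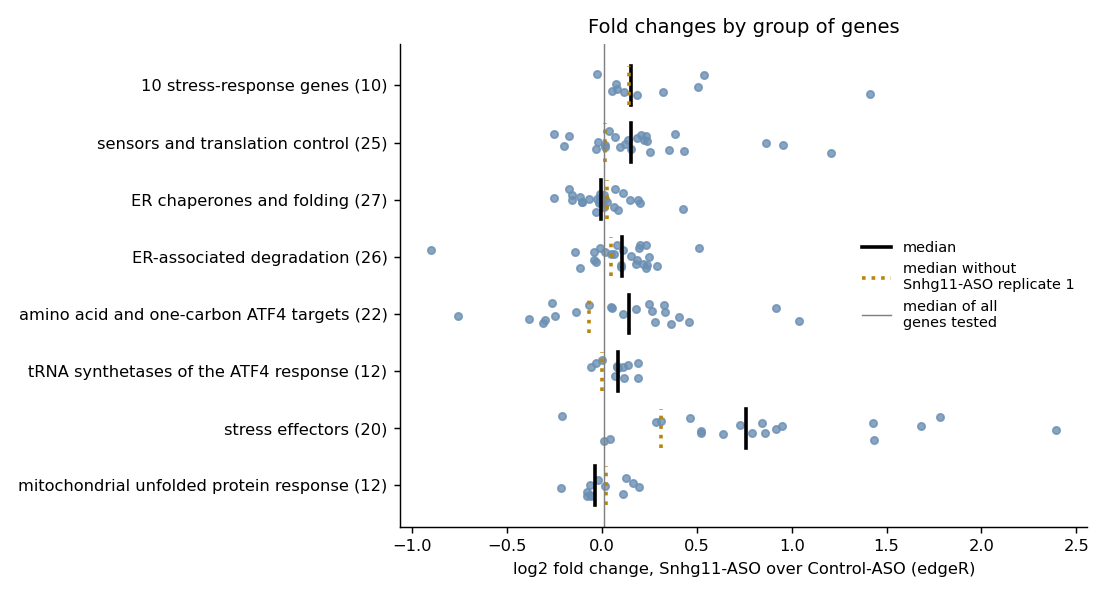
Log2 fold change, Snhg11-ASO over Control-ASO, of each tested gene (points) of the 10 stress-response genes and of 7 pathway lists, with the number of genes in brackets, the median (black), the median without Snhg11-ASO replicate 1 (gold, dotted) and the median of all genes (grey line). Stress effectors lie farthest to the right, with medians of 0.76 and 0.31, and the other lists have medians between -0.04 and 0.15.

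Cell type markers were read beside these values. Infiltrating leukocyte markers summed to 56.7 CPM in Snhg11-ASO replicate 1, to 8.59 and 6.50 CPM in replicates 2 and 3, and to 3.27 to 7.41 CPM in Control-ASO. Of 12 such markers 8 passed the filter, all with a higher fitted level in Snhg11-ASO, while the T cell markers Cd3e, Cd4 and Cd8a were among those that did not pass it. With that replicate left out, 5 were higher and 4 lower of 9 that passed, and their median log2 difference went from 1.71 to 0.28. DESeq2 called 1 gene of the list, Ly6c2, where it called 1.44% of all genes with an adjusted p. The edgeR log2 difference of Ly6c2 was 2.14, and 1.84 (SE 0.31) without that replicate. S100a8, a neutrophil and monocyte gene, stood at 22.3 CPM in Snhg11-ASO replicate 1 and at no more than 1.05 CPM elsewhere. Microglia markers summed to 214 CPM in that replicate against 318 to 680 CPM in the other 5 samples, and astrocyte markers to 4051 CPM against 4427 to 6681 CPM. Oligodendrocyte markers summed to 1593 to 2929 CPM in Control-ASO and to 1660 to 3609 CPM in Snhg11-ASO. Endothelial markers summed to 144 to 171 and 146 to 175 CPM. These sums hide a shift in the median log2 departure from the Control-ASO mean. For endothelial markers it was 0.66 in Snhg11-ASO replicate 1 and -0.07 to 0.09 in the other samples. For oligodendrocyte markers it was -0.86 in that replicate and -0.34 to 0.80 in the others. Replicate 1 of Snhg11-ASO thus differed from the rest in these markers as well as in Atf4, Trib3 and the stress effectors, and the part of the cell types in those values was not tested.

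**Figure D4:**
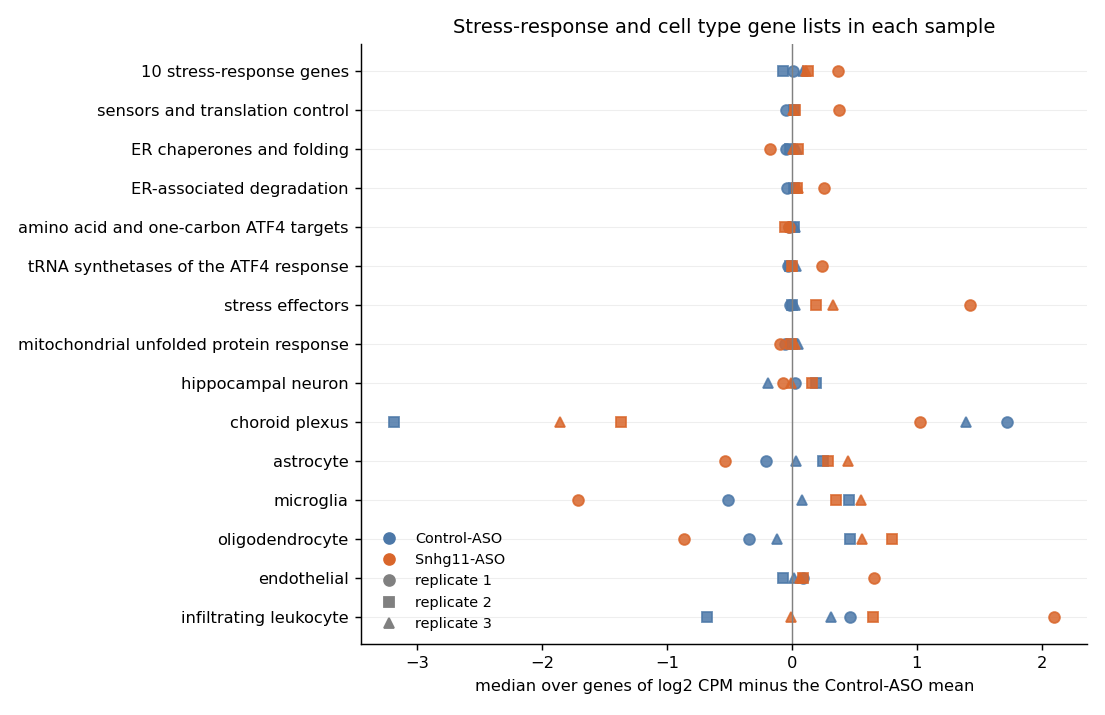
Median over the genes of each list of log2 CPM minus the Control-ASO mean, in each Control-ASO (blue) and Snhg11-ASO (orange) sample, with marker shape for the replicate. Snhg11-ASO replicate 1 lies at 0.37 for the 10 stress-response genes, at 1.42 for stress effectors and at 2.10 for infiltrating leukocyte markers, and at -1.71 for microglia markers.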

How the data were processed

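Per the deposited files, the values of the 6 samples are unnormalized counts of read pairs by gene, which the authors made with STAR 2.5.2a on mm10 from ribo-depleted, stranded TruSeq libraries (the methods name Rsubread for counting). Summary lines that name no gene held 43.5% to 51.4% of pairs and were left out. Reverse-strand counts were used, since they held 96.2% to 96.8% of stranded pairs. GENCODE M21 matched 55141 of 55401 gene IDs. Genes were filtered with filterByExpr (minimum count 10), scaled with TMM and tested with edgeR 4.0.16 (quasi-likelihood, R 4.3.3), Benjamini-Hochberg adjustment at 0.05 over all genes. Single genes also had an exact permutation test. Log2 CPM used a prior count of 2. The fit was also run on simulated counts, which held no outlying sample like Snhg11-ASO replicate 1, so that run cannot vouch for the calls here.

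The genes and lists were chosen with earlier results of these data known. Named genes were the 10, Snhg11, the 2 smallest unadjusted p and the highest mean CPM of each pathway list, the highest mean CPM of each marker list, and the 3 genes nearest in pattern to Atf4 and to Hspa5; not every marker is printed. Atf3, Ppp1r15a, Eif2ak2 and Ly6c2 were named after their values were seen. The motif search was added after the files were read.

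Deviations of same-numbered samples from group means correlated at 0.297, 0.179 and 0.103, but Control-ASO 2 with Snhg11-ASO 3 gave 0.188. No source says what a number marks, and this check cannot settle whether the numbers pair the samples. The main fit and the exact permutation tests used the group only, and a replicate block was fitted as an alternative. Alternatives were DESeq2 1.42.0, its size factors in edgeR, scaling without mitochondrial genes, both strands, 2 other filters, a replicate block, and each sample left out.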

Additional observations from a re-analysis of the deposited data

How the results depend on the processing

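With edgeR 0 genes were called, against 258 with DESeq2, and 347, 275 and 223 with DESeq2 without Snhg11-ASO replicate 1, 2 or 3. Leaving out each sample in turn gave 0 to 2 genes in edgeR (2 without Snhg11-ASO replicate 1). The fit with the replicate block, which treats same-numbered samples as pairs, called 0 genes and 0 of the 10, and changed no call. Under all 16 alternatives 0 of the 10 stress-response genes were called. Trib3 had no adjusted p in the 4 DESeq2 fits, which set it aside for low counts. Adjusted p of Atf4 ranged from 0.128 to 0.979. The log2 difference changed sign in 11 of 160 refits, each with 1 sample left out, and kept it in 149. With samples left out it ranged from -0.011 to 0.094 for Asns (-0.0096 with DESeq2 without Snhg11-ASO replicate 1), from -0.25 to 0.25 for Chac1 and from -0.21 to 0.11 for Herpud1 (0.0092 with DESeq2 without Snhg11-ASO replicate 3), and the cause was not tested. Trib3 rested on 7 to 44 pairs a library, and whether depth limited its call was not tested.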

Other observations

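Of all genes tested, those whose log2 CPM over the 6 samples, centred on its mean, lay nearest to Atf4 were Zc3h12c, a zinc finger RNase (root-mean-square difference 0.0314), Relt, a TNF receptor family member (0.0375), and F3, the coagulation tissue factor (0.0485). Zc3h12c stood at 24.8, 24.3 and 26.3 CPM in Control-ASO and at 51.9, 24.0 and 30.05 CPM in Snhg11-ASO, with replicate 1 of Snhg11-ASO high, like Atf4. Nearest to Hspa5 were Morc4 (0.0342), Fam13b (0.0374) and the lipid phosphatase gene Plpp1 (0.0416). Fam13b stood at 64.6, 57.0 and 66.7 CPM in Control-ASO and at 68.2, 68.8 and 67.7 CPM in Snhg11-ASO, with the low value in Control-ASO replicate 2 that Hspa5 also had. With 6 samples many genes resemble any pattern, and these likenesses are descriptions.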
